A study of Mus musculus with 6 samples.

Results

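SLAM receptors are cell surface proteins of the immunoglobulin superfamily through which blood cells recognise each other, and the genes of 6 of them, Ly9, Slamf7, Cd48, Slamf1, Cd84 and Slamf6, were followed here together with Sh2d1a and Fyn. Sh2d1a encodes SAP, the adaptor that binds to tyrosine motifs in the receptors' tails, and Fyn encodes the Src family kinase that SAP brings to them. The 8 genes were given as a list, chosen with earlier results of these data known. Each was represented by the array row that carries its symbol as the only gene symbol, or by the brighter row where there were several, so that 8 of the 22180 genes tested, with 9 of 23521 rows, are described. The samples were iNKT cells of mice, T cells with a nearly fixed receptor for lipids on CD1d whose development needs PLZF, the product of Zbtb16. There were 2 groups of 3 whole-transcript arrays each, WT controls and PLZF_ON, in which the mice carry a PLZF that stays acetylated. The sources used here do not give the strain, age or organ, the promoter and kind of allele behind PLZF_ON, or whether replicates are separate animals. The tests therefore cover the spread between these arrays alone, and it may be technical. The study's description names replicates 1 and 2 of each group as those it analysed; this comparison of 4 arrays is given first, and that of all 6 beside it.

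Most SLAM receptors bind to copies of themselves on a neighbouring cell. The iNKT lineage is selected in the thymus by immature thymocytes that present lipids on CD1d and, unlike the epithelium that selects other T cells, carry Slamf1 and Slamf6. Engagement of these receptors beside the T cell receptor works through SAP and Fyn, and mice that lack SAP or Fyn have very few iNKT cells. The transcription factor Myb is known to sustain the SLAM receptors and SAP in those thymocytes, and Egr2 acts downstream of the T cell receptor on Zbtb16.

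The SLAM receptors of PLZF_ON cells differed from WT in both directions. Slamf7 was 8.47-fold lower and Cd48 1.42-fold lower than in WT over the 4 arrays, with Ly9 also lower, while Slamf6 was 2.54-fold, Slamf1 1.5-fold and Cd84 1.27-fold higher. SAP and Fyn differed by less, 1.21-fold and 1.12-fold higher. None of the 8 genes passed limma with Benjamini-Hochberg adjustment over all 23521 rows at 0.05 (0 of 8, smallest adjusted p = 0.167, Slamf7), a test that 0.17% of all rows passed. An unadjusted limma p under 0.05 was reached by 5 of the 8 (3 higher and 2 lower), against 9.41% of all rows. That count fell when any 1 of the 4 arrays was left out, which leaves a single array in 1 group. Because the genes were chosen with earlier results of these data known, the comparison with all rows is no test of an excess. On the 4 arrays the groups did not overlap for any of the 8, with 5 genes above and 3 below WT, where 18.9% of rows lay wholly above and 19.3% wholly below. The median log2 difference of the 8 was 0.22, beside -0.004 over all genes tested. The call was gained by Slamf6 without WT replicate 2 (limma adjusted p = 0.0213) and by Slamf7 without PLZF_ON replicate 1 (0.0329); the number of all rows passing was 40 over the 4 arrays, 106 and 32 under these omissions, and 0 without PLZF_ON replicate 2.

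Over all 6 arrays 0 of the 8 passed limma (smallest adjusted p = 0.0829, Slamf7), a test that 0.0935% of rows passed. An unadjusted limma p under 0.05 was reached by 3 (1 higher, Slamf6, and 2 lower, Slamf7 and Cd48), against 5.77% of rows. Without WT replicate 3, Cd48 was no longer among these 3. Of the 8, 1 lay wholly above WT (Slamf6, against 5.55% of rows) and 3 wholly below (Slamf7, Cd48 and Ly9, against 6.22%), and 4 overlapped. The median log2 difference of the 8 over the 6 arrays was -0.002, with 4 higher and 4 lower, beside 0.026 over all genes tested. PLZF_ON replicate 3 stood apart from the other 5 arrays, correlating with them at 0.895 to 0.898 across rows where those 5 correlated at 0.957 to 0.973 with each other. Immature thymocyte markers were also high on it: the summed level of the 6 measured markers of double-positive thymocytes was 10.37 on the log2 scale, against 7.33 to 7.48 on the other 5 arrays, with Cd24a at 9.58 against 4.41 to 5.27, Cd8b1 at 7.77 against 5.08 to 5.89 and Dntt at 7.19 against 3.46 to 4.10. On the same array Slamf1, Sh2d1a, Fyn, Cd48, Slamf6 and Cd84 were lower than on the other PLZF_ON arrays. Values also spread less across its rows (SD 1.79) than on the other 5 arrays (SD 1.97 to 2.01). After quantile normalization, which gives all arrays a common distribution, 6-array log2 differences moved from 0.10 to 0.23 for Sh2d1a and from 0.21 to 0.325 for Cd84. Fyn moved from -0.105 to 0.03, and only Slamf1 moved down, from 0.15 to 0.10. The part of other cells and of this narrower spread in these values was not tested. In bulk samples fewer cells of a type and less RNA per cell cannot be told apart. Without PLZF_ON replicate 3, 5 members were higher and 3 lower. Again none passed limma over all rows (adjusted p = 0.0683 for Slamf7 and 0.107 for Slamf6), a test that 107 rows then passed.

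**Figure D1:**
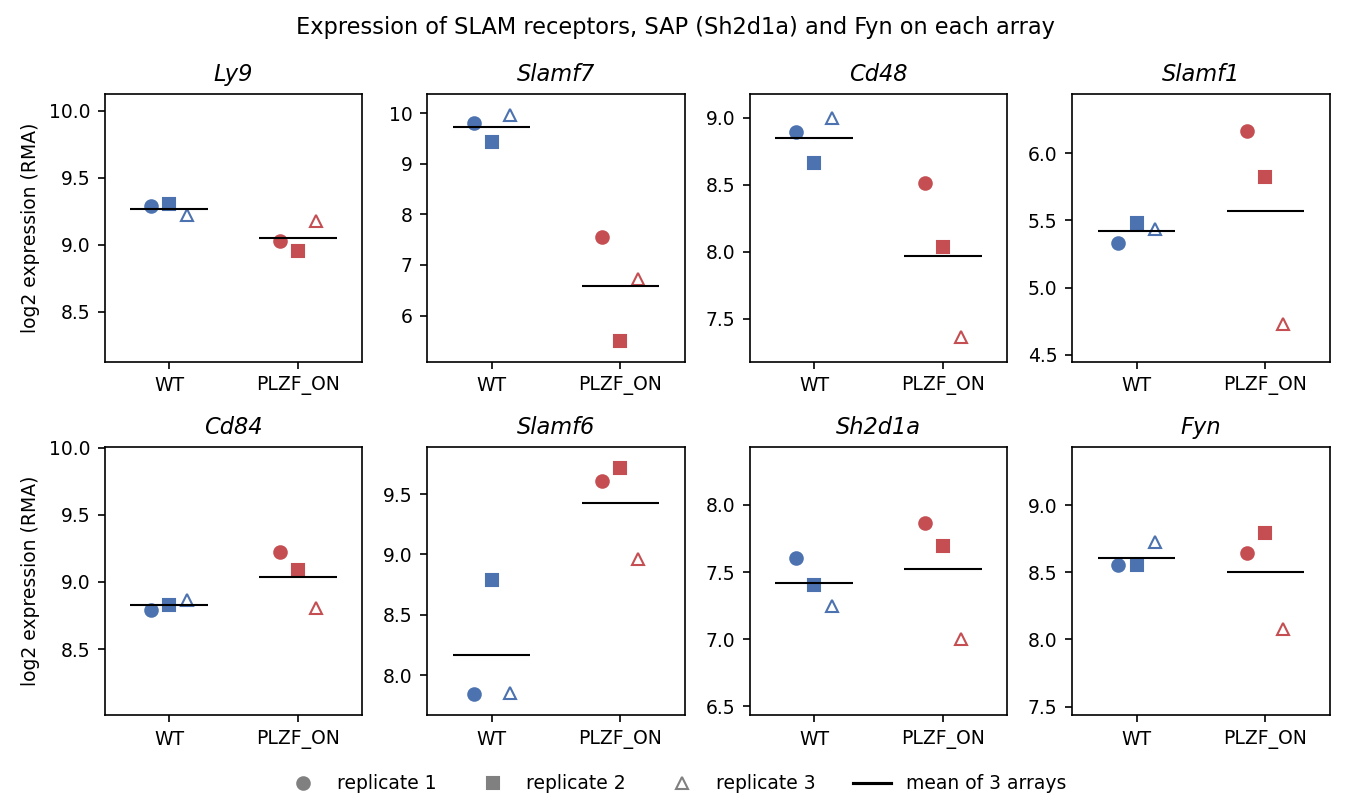
Log2 expression (vertical axes, RMA values as deposited; each panel has its own range) of the 8 genes on each array, in WT and PLZF_ON. Symbols mark the replicate number and lines the mean of 3 arrays; all 3 PLZF_ON arrays lie below all WT arrays for Slamf7, Cd48 and Ly9 and above them for Slamf6, while the replicate 3 array of PLZF_ON is the lowest of all 6 for Slamf1, Sh2d1a and Fyn.

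The 6 receptor genes lie side by side on chromosome 1, and the sequence just before the start of 3 of them is shown because these 3, Slamf7, Cd48 and Slamf6, had an unadjusted limma p under 0.05 over both 4 and 6 arrays. The sequences are those of RefSeq on build GRCm38.p6, from 250 bases before to 50 bases after the gene's start, read 5′ to 3′ on the gene's strand; entries were found for 6 of the 8 genes, not for Ly9 and Sh2d1a. Capitals mark, on either strand, the letters GGTGTG (the core bound by T-box factors such as T-bet), TGTGGT (RUNX factors), AACNG (MYB) and TGANTCA (AP-1), motifs chosen after the values were seen.
Slamf7, chr1:171648950-171649249, minus strand: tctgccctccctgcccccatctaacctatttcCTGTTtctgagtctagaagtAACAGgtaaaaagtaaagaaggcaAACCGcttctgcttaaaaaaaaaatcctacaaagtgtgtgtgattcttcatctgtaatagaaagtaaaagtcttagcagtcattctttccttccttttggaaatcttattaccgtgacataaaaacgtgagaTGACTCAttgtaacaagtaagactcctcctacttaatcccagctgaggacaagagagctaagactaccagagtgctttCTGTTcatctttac
Cd48, chr1:171681742-171682041, plus strand: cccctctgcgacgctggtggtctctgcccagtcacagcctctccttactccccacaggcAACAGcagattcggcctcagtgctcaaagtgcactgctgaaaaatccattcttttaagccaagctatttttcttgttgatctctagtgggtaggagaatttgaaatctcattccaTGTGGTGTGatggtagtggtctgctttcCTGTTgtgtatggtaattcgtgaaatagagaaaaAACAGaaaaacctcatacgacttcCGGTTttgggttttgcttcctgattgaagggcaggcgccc
Slamf6, chr1:171917212-171917511, plus strand: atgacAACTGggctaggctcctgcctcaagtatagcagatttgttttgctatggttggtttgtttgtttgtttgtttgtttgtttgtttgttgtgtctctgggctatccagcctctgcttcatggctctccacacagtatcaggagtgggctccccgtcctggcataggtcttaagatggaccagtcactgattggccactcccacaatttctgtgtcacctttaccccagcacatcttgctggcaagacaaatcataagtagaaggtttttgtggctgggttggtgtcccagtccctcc
The Slamf7 window held 1 AP-1 match, which begins 42 bases before the start, and 4 MYB matches. The Cd48 window held 1 T-box and 1 RUNX match that overlap each other, 73 and 76 bases before the start, and 4 MYB matches, and the Slamf6 window 1 MYB match. Of all 32851 windows of this length 19.0% held a T-box match, 16.8% a RUNX match, 80.3% a MYB match and 7.81% an AP-1 match. Among the 6 genes with an entry, a match was found in 2 for T-box (Cd48 and Fyn), 2 for RUNX (Cd48 and Cd84), 6 for MYB and 2 for AP-1 (Slamf7 and Cd84). These matches are letters in a window and say nothing of binding.

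Slamf7, also called CRACC, is a receptor of natural killer cells, cytotoxic T cells and plasma cells that binds to itself and signals mainly through the SAP-like adaptor EAT-2. On the log2 scale it read 9.80, 9.42 and 9.97 on the WT arrays and 7.55, 5.50 and 6.72 on the PLZF_ON arrays, here and below in the order of replicates 1, 2 and 3. All PLZF_ON arrays were thus below all WT arrays, the nearest pair being 1.87 apart on the log2 scale, and the PLZF_ON arrays differed among themselves (SD 1.03, n = 3) more than the WT arrays did (SD 0.28, n = 3). Over the 4 arrays the log2 difference was -3.08 (SE 0.61, 95% interval -4.57 to -1.60, limma adjusted p = 0.167), and over 6 it was -3.14 (SE 0.46, interval -4.21 to -2.07, limma adjusted p = 0.0829). Of the 22180 genes, 6 were lower in PLZF_ON by more over the 4 arrays and 2 over the 6. The difference was -2.06 without PLZF_ON replicate 2 and -4.11 without PLZF_ON replicate 1. Of 4 markers listed for natural killer cells, which also carry Slamf7, 3 were measured, and only Klrb1c was lower on all PLZF_ON arrays than on any WT array. Their summed log2 level was 9.76 to 10.33 in WT and 7.63 to 9.40 in PLZF_ON, and in WT this sum was mostly Klrb1c. Klrb1c read 7.25 to 8.63 in PLZF_ON, against 9.30 to 10.24 in WT. Ncr1 (4.80 to 8.25 against 5.80 to 7.48) and Eomes (4.22 to 6.33 against 4.60 to 5.85) overlapped, with 4-array differences of -0.02 and 0.32. PLZF_ON replicate 2, the lowest array for Slamf7, was also the lowest of all arrays for Klrb1c, Ncr1 and Eomes. On PLZF_ON replicates 1 and 3 Ncr1 read 7.65 and 8.25, above all WT arrays, and Eomes 6.33 and 5.62. Whether Klrb1c was read from natural killer cells or from iNKT cells was not tested. The part of these genes' cells in the Slamf7 values was not tested either.

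Slamf6, or Ly108, is the receptor that together with Slamf1 is needed for iNKT selection. It read 7.85, 8.79 and 7.86 on the WT arrays and 9.61, 9.72 and 8.96 on the PLZF_ON arrays. The groups did not overlap, but WT replicate 2 lay close to PLZF_ON replicate 3, 0.17 apart. The log2 difference was 1.34 over the 4 arrays (SE 0.30, 95% interval 0.61 to 2.08, limma adjusted p = 0.207) and 1.26 over the 6 (SE 0.31, interval 0.54 to 1.99, limma adjusted p = 0.363), and 65 and 50 genes, respectively, were higher by more. Without WT replicate 1 the 4-array difference was 0.87, and without WT replicate 2 it was 1.82. A dimmer row of Slamf6 read 5.81, 6.33 and 5.97 in WT and 6.62, 6.48 and 6.16 in PLZF_ON. In that row too the 4-array difference had the same sign, 0.48 (SE 0.20, limma adjusted p = 0.535), and over 6 arrays it was 0.39 with overlapping groups.

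Slamf1, also called CD150, binds to itself and serves beside Slamf6 in iNKT selection. It was at 5.33, 5.48 and 5.44 in WT and at 6.16, 5.83 and 4.73 in PLZF_ON. The WT arrays lay close together, replicates 1 and 2 of PLZF_ON above them and replicate 3 below. The difference was 0.59 over the 4 arrays (SE 0.17, interval 0.18 to 0.99, limma adjusted p = 0.315) and 0.15 over the 6 (SE 0.34, interval -0.64 to 0.94). Its row is dim: smell and pheromone receptor genes, 1394 in number and foreign to T cells, had mean levels with a 95th percentile of 5.21, and PLZF_ON replicate 3 was under it. Cd84, a self-binding receptor that steadies contacts between T and B cells, was at 8.79, 8.83 and 8.86 in WT and at 9.22, 9.09 and 8.81 in PLZF_ON. PLZF_ON replicate 3 lay within WT and the other PLZF_ON arrays above it, and the difference was 0.35 over the 4 arrays (SE 0.13, interval 0.02 to 0.67, limma adjusted p = 0.492) and 0.21 over the 6.

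Cd48 differs from the others in being anchored by a lipid, without a tail for SAP, and in binding to CD2 and to the SLAM receptor encoded by Cd244a. It was at 8.89, 8.66 and 8.99 in WT and at 8.51, 8.04 and 7.37 in PLZF_ON, with all PLZF_ON arrays below all WT arrays and replicate 3 the lowest. The difference was -0.50 over the 4 arrays (SE 0.20, interval -0.98 to -0.02, limma adjusted p = 0.505) and -0.88 over the 6 (SE 0.28, interval -1.54 to -0.22, limma adjusted p = 0.62). Over the 4 arrays it was -0.27 without PLZF_ON replicate 2 and -0.39 without WT replicate 1 (limma adjusted p = 0.833 and 0.881), and over the 6 it was -0.81 without WT replicate 3 (limma adjusted p = 0.984). In these 3 cases the unadjusted p was no longer under 0.05. Ly9, which has been described as restraining iNKT cells, was at 9.29, 9.30 and 9.22 in WT and at 9.03, 8.95 and 9.18 in PLZF_ON. It was lower on each PLZF_ON array, on replicate 3 by no more than 0.04 below the lowest WT array, and the difference was -0.30 over the 4 arrays (SE 0.13, interval -0.62 to 0.01, limma adjusted p = 0.552) and -0.22 over the 6.

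Along the chromosome the receptors stand in the order Cd244a, Ly9, Slamf7, Cd48, Slamf1, Cd84 and Slamf6, by the RefSeq gene table of GRCm38.p6, used here for order alone. The first 4 were lower in PLZF_ON and the last 3 higher in both comparisons, so that the signs changed once, between Cd48 and Slamf1. Only for Ly9, Slamf7, Cd48 and Slamf6 did this hold on every PLZF_ON array without overlap with WT. Cd244a, which encodes the Cd48 receptor 2B4, was at 6.19, 6.50 and 6.07 in WT and at 6.12, 4.92 and 6.18 in PLZF_ON, so that its difference of -0.82 (SE 0.38, limma adjusted p = 0.595) came mostly from replicate 2, without which it was -0.22. The table lists 15 genes from Cd244a to Slamf6, of which these 7 were measured. Of the 2 genes listed on either side, those after Slamf6, Vangl2 and Nhlh1, had rows of their own, with 4-array differences of 0.27 (SE 0.15) and -0.07 (SE 0.16), and on the side of Cd244a the nearest measured coding genes, looked up afterwards, were Itln1 (-0.01, SE 0.14) and Alyref2 (-0.49, SE 0.19). None of these 4 passed limma (adjusted p from 0.483 to 0.998).

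**Figure D2:**
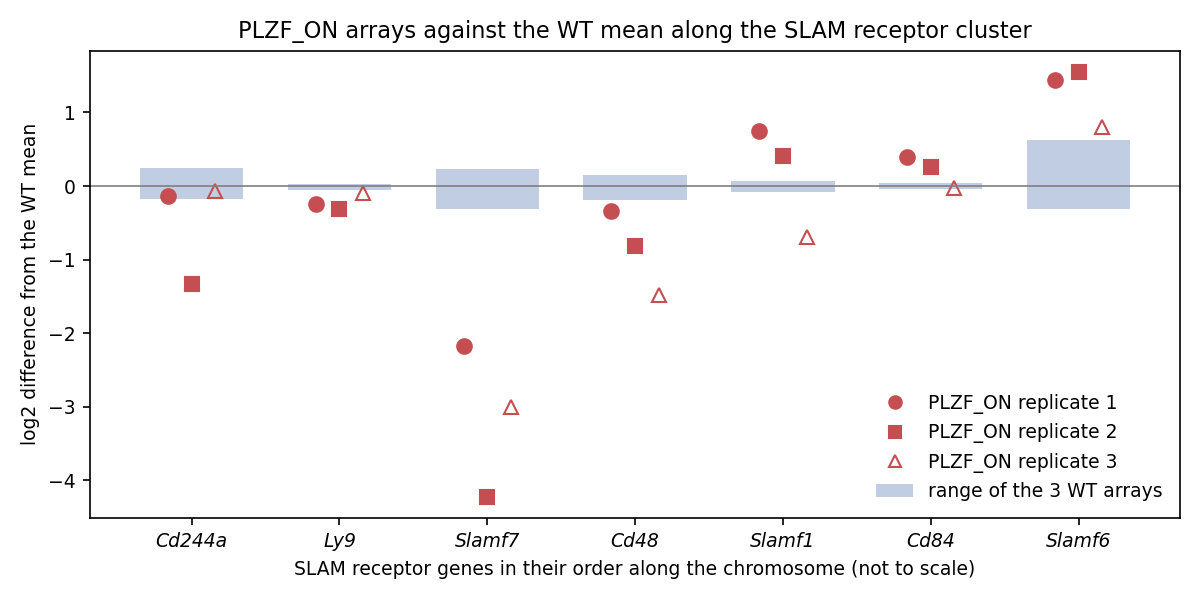
Log2 difference of each PLZF_ON array from the mean of the 3 WT arrays (vertical axis) for the 7 SLAM receptor genes in chromosomal order (horizontal axis, not to scale), with the range of the WT arrays as a band. Points lie at or below 0 from Cd244a to Cd48, down to -4.22 for Slamf7, and mostly above 0 from Slamf1 to Slamf6, up to 1.55 for Slamf6, apart from PLZF_ON replicate 3 in Slamf1 and Cd84.

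SAP and Fyn, the adaptor and its kinase, had the smallest estimated differences of the genes followed, in both comparisons. Sh2d1a was at 7.61, 7.41 and 7.24 in WT and at 7.87, 7.69 and 7.0 in PLZF_ON. The 4-array difference was 0.27 (SE 0.15, interval -0.09 to 0.64, limma adjusted p = 0.677), and over 6 arrays the groups overlapped and the difference was 0.10 (interval -0.47 to 0.67). Fyn was at 8.55, 8.55 and 8.72 in WT and at 8.64, 8.79 and 8.08 in PLZF_ON. Its difference was 0.16 over the 4 arrays (SE 0.13, interval -0.16 to 0.49, limma adjusted p = 0.816) and -0.10 over the 6 (interval -0.59 to 0.38), where it turned to 0.11 without PLZF_ON replicate 3. With intervals of this width, SAP and Fyn were not shown to be equal in the groups.

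**Figure D3:**
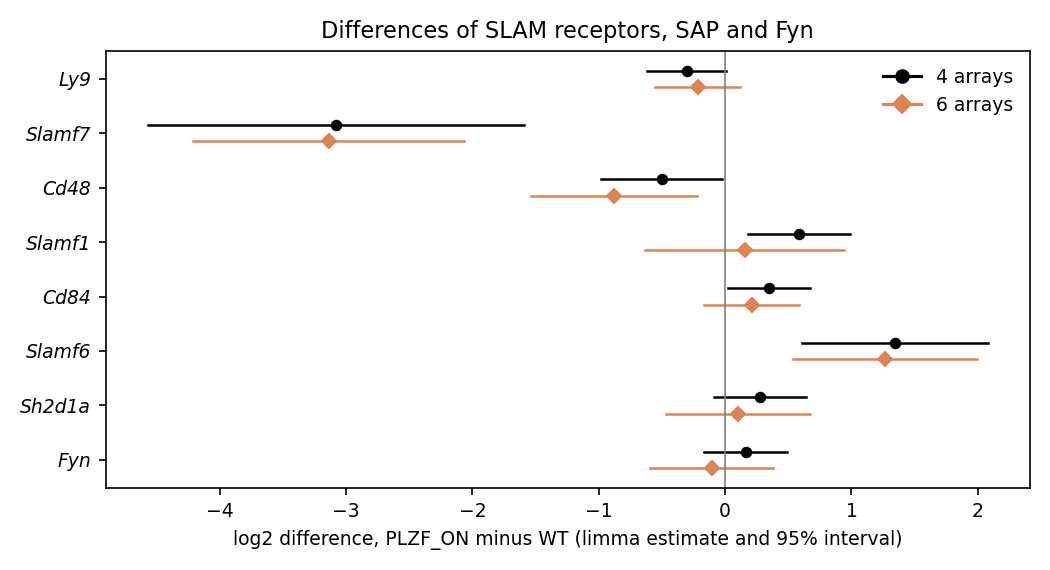
Log2 difference between PLZF_ON and WT (horizontal axis) for each of the 8 genes, as limma estimates with 95% intervals, over 4 arrays (circles) and 6 arrays (diamonds). The intervals of Slamf7 and Cd48 lie wholly below 0 and that of Slamf6 wholly above 0 in both, while those of Sh2d1a and Fyn span 0.

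Further genes of the pathway were taken from a list of 29, of which 26 were measured. This list too was chosen with earlier results known, so its counts beside all rows are no test of an excess. Over the 4 arrays 15 were higher and 11 lower in PLZF_ON, with a median log2 difference of 0.01. By limma 0 of 26 passed over all rows (smallest adjusted p = 0.075), against 0.17% of rows, and 7 had an unadjusted p under 0.05 (3 higher and 4 lower), against 9.41%. Over the 6 arrays 0 passed limma (smallest adjusted p = 0.274), against 0.0935% of rows, and 5 had an unadjusted p under 0.05, against 5.77%. When PLZF_ON replicate 3 was left out 1, Egr2, passed (limma adjusted p = 0.0292), as did 107 of all rows. The 6-array count at an unadjusted limma p under 0.05 rose when any PLZF_ON array was left out and fell when any WT array was left out. The 3 genes higher over the 4 arrays were Egr2, Myb and Zbtb16. Egr2 was at 7.53, 7.60 and 7.45 in WT and at 8.59, 8.48 and 7.87 in PLZF_ON, a 4-array difference of 0.97 (SE 0.13, limma adjusted p = 0.075) without overlap on the 6 arrays. Myb was at 8.44, 8.48 and 8.27 in WT and at 9.01, 9.44 and 8.95 in PLZF_ON, also without overlap, with a difference of 0.76 (SE 0.18, limma adjusted p = 0.232), and its dimmer row differed by 0.80. Zbtb16 differed by 0.51 (SE 0.15, limma adjusted p = 0.369), with PLZF_ON replicate 3 the lowest of the 6 arrays at 9.54. It encodes PLZF, the protein altered in PLZF_ON, so its row may also read the altered form, which was not tested.

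The 4 lower genes were Pag1, Ptpn6, Inpp5d and Dok1. Pag1, a membrane adaptor that holds the Fyn-inhibiting kinase Csk, was at 7.35, 7.35 and 7.46 in WT and at 6.78, 6.53 and 6.15 in PLZF_ON. Its 4-array difference was -0.70 (SE 0.15, limma adjusted p = 0.183), and the groups did not overlap on the 6 arrays. Ptpn6, the phosphatase SHP-1 that binds to SLAM receptor tails when SAP does not, was at 9.83, 9.66 and 9.58 in WT and at 9.43, 9.13 and 8.69 in PLZF_ON, a difference of -0.46 (SE 0.16, limma adjusted p = 0.434). Inpp5d, the lipid phosphatase SHIP-1, differed by -0.39 (SE 0.15, limma adjusted p = 0.505) and Dok1, an adaptor of Ras inhibition, by -0.45 (SE 0.18, limma adjusted p = 0.508). Csk itself differed by -0.16 (SE 0.14, limma adjusted p = 0.824).

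The remaining SLAM receptors and SAP-like adaptors were dim. Slamf9 was between 4.35 and 4.68 in WT and between 4.37 and 4.73 in PLZF_ON, and Sh2d1b2, which encodes ERT, between 3.21 and 3.65 on all arrays, all below the 5.21 of the smell and pheromone receptor genes. Sh2d1b1, which encodes EAT-2, the partner of Slamf7, was at 4.43, 4.43 and 4.79 in WT and at 5.67, 4.04 and 5.32 in PLZF_ON, on both sides of that level. Slamf8 was between 4.97 and 5.36 in WT and between 5.31 and 6.05 in PLZF_ON, with a difference of 0.23 over the 4 arrays (SE 0.15, limma adjusted p = 0.758).

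**Figure D4:**
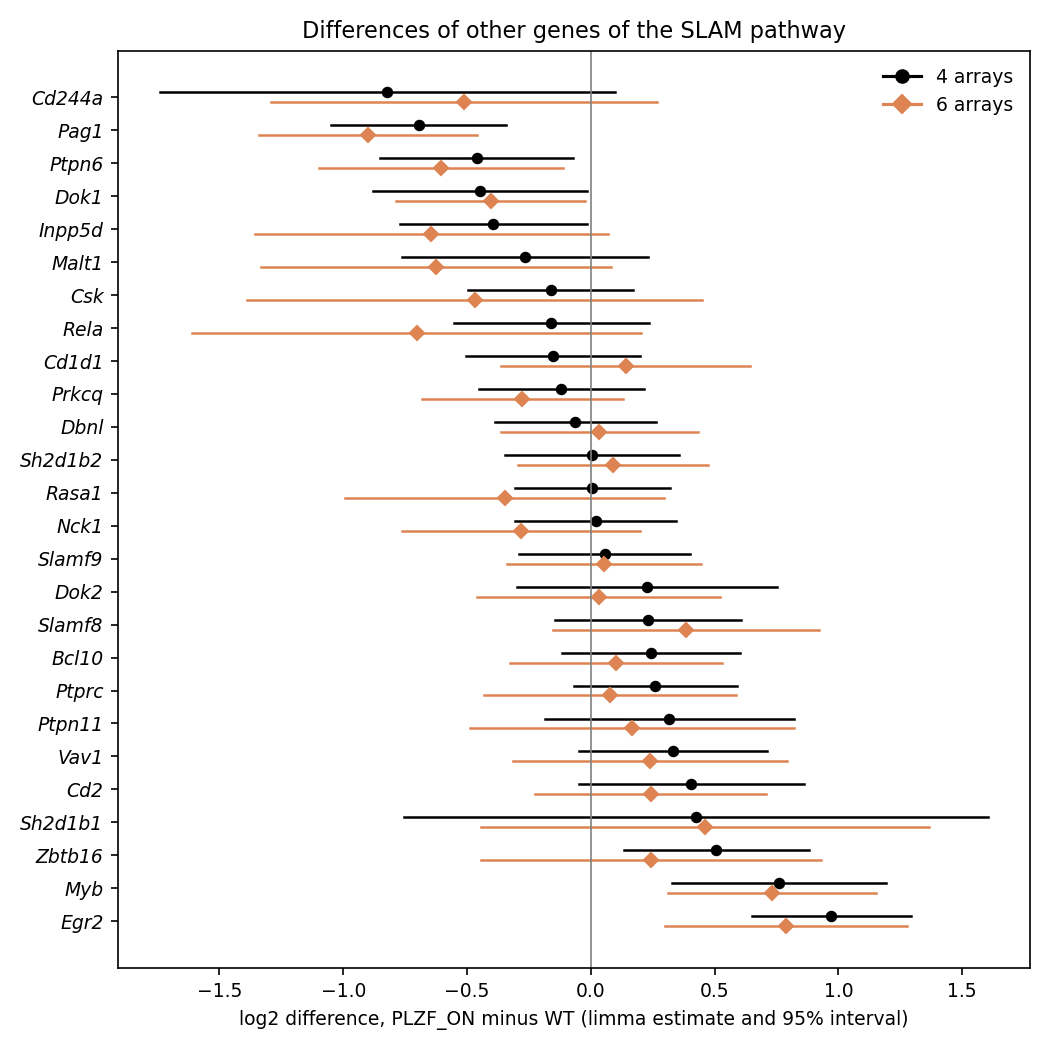
Log2 difference between PLZF_ON and WT (horizontal axis) for the 26 measured genes of the pathway list, as limma estimates with 95% intervals, over 4 arrays (circles) and 6 arrays (diamonds), sorted by the 4-array estimate. The intervals of Egr2 and Myb lie wholly above 0 and those of Pag1, Ptpn6 and Dok1 wholly below 0 in both. Cd244a has the lowest estimate over 4 arrays with an interval that spans 0.

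Markers of the labelled cell type were present on all arrays. Each of the 7 measured T cell markers and the 4 iNKT markers lay above the level of 5.21 on average, Zbtb16 between 9.54 and 10.68. The summed log2 level of the T cell markers was 12.98 on PLZF_ON replicate 3 and 13.41 to 13.56 on the other arrays. Over the 4 arrays 4 T cell markers were higher and 3 lower. The largest difference was that of Cd5, 0.77 (SE 0.17, limma adjusted p = 0.198). Of the iNKT markers Zbtb16, which encodes the protein altered in PLZF_ON, was higher over the 4 arrays and 3 were lower, with a median log2 difference of -0.51. An unadjusted limma p under 0.05 was reached by 3 of the 4, against 9.41% of rows, and 0 passed over all rows, against 0.17%. Their summed log2 level ran from 12.20 to 12.53 in WT and from 11.42 to 12.30 in PLZF_ON. Il2rb, a chain of the interleukin-2 and interleukin-15 receptors, read 11.00, 10.73 and 10.53 in WT and 10.01, 9.76 and 8.84 in PLZF_ON, a 4-array difference of -0.98 (SE 0.16, limma adjusted p = 0.116). Cd44, an adhesion receptor of activated and memory T cells, read 8.28, 7.91 and 8.02 in WT and 7.24, 6.83 and 6.52 in PLZF_ON, a difference of -1.06 (SE 0.20, limma adjusted p = 0.157). Like Slamf7, Cd48 and Ly9, both were lower on all PLZF_ON arrays than on any WT array, while Icos differed by -0.04; their part in the values of the SLAM receptors was not tested. Markers of other blood cells that carry SLAM receptors were mostly below the level of 5.21 on average. Above it lay 0 of 4 for B cells, 0 of 5 for dendritic cells, 2 of 5 for macrophages (Cd68 and Itgam) and 1 of 4 for platelets (Gp9). Itgam and Gp9 were barely above it. The macrophage marker Lyz2 was at 6.58 on PLZF_ON replicate 3 and at 3.96 to 4.48 on the other arrays, while Cd68 was lowest on that array, at 5.32. The summed log2 levels ran from 6.27 to 6.43 in WT and from 6.32 to 6.53 in PLZF_ON for B cells, and from 7.59 to 7.68 and from 7.56 to 7.80 for macrophages.

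The pattern of each gene over the 6 arrays was set against those of 11090 genes whose mean was at least the median, by Pearson correlation of log2 values. With 6 arrays in 2 genotypes such values are high for many genes, and between 13 (Ly9) and 256 (Fyn) genes reached 0.95. The pattern of Slamf7 was most like that of Runx3 (0.998), a transcription factor of cytotoxic lymphocytes, and of Cd7 (0.997), a T and NK cell surface protein, and these stayed at 0.999 and 0.997 without PLZF_ON replicate 3. Slamf6 was most like A930013F10Rik (0.991) and Traip (0.990), Cd84 like Trim36 (0.998) and Rgs10 (0.996), and Ly9 like Nfil3 (0.984) and Rnpep (0.982). Sh2d1a was most like Ubash3a (0.995), which encodes a regulator of T cell receptor signalling, and Slc25a4 (0.995), Slamf1 like Sptlc1 and Marveld2 (0.995 each), Cd48 like Insyn2b and R3hdm2 (0.996 each), and Fyn like Mgrn1 (0.997) and Arhgef7 (0.996).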

How the data were processed

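Values were the authors' deposited log2 expression values, 1 per array row. The submitters' processing notes name RMA, with no version. This method corrects background, usually gives all arrays a common distribution, summarises probes and understates changes of dim genes. The deposited values did not share a common distribution. On PLZF_ON replicate 3 the median was 5.01 and the SD across rows 1.79, against 4.88 to 4.92 and 1.97 to 2.01 on the other 5 arrays. The sources used here do not give the genome build or array annotation behind the values. Total RNA was labelled with biotin, per the labels' protocols, which mention frozen tissue. The deposited values were used without further scaling.

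Of 41345 rows, 23521 carried exactly 1 gene symbol in the platform annotation and were tested; 1814 with several symbols and 16010 unnamed here were left out. For a gene with several rows the one with the highest mean over the 6 arrays was taken. Cd244 was found under its later symbol Cd244a.

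PLZF_ON was compared with WT with R 4.3.3 and limma 3.58.1 (a linear model of genotype alone with moderated variances, two-sided), with p-values adjusted by Benjamini-Hochberg over all tested rows, over 4 arrays (2 residual degrees of freedom) and over 6 (4 degrees). Intervals are 95% limma intervals of single genes, not adjusted. The number of arrays limits the precision. The members and lists were chosen with earlier results of these data known, and the background level from smell and pheromone receptor genes (symbols beginning with Olfr, Vmn1r or Vmn2r) and the motifs were chosen after values were seen. Named genes were the 8 members, the pathway genes with an unadjusted p under 0.05 over 4 arrays, the other SLAM receptors and SAP-like adaptors, 2 genes of most similar pattern per member and the neighbours of the cluster. The scripts were tested on simulated data. Alternatives were array weights, all deposited rows, median centring, quantile normalization, a variance trend, the brighter rows, a replicate block, each array left out, and a gene's rows averaged. Figures come from matplotlib 3.10.9.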

Additional observations from a re-analysis of the deposited data

How the results depend on the processing

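Of 208 values of the 8 genes under the alternatives, 198 kept their direction and their side of the threshold. None of the 8 had passed in either main comparison, so no value could lose a call, and this count says little about how firm the differences are. Turned in sign were Fyn over 6 arrays with quantile normalization (0.028) and with array weights (0.098), and, when 1 array was left out, Slamf1 (-0.14 to 0.58), Sh2d1a (-0.073 to 0.36) and Fyn (-0.25 to 0.11) over 6 arrays. The replicate numbers were not taken as pairs in the main comparisons, but whether they mark pairs was not settled. Same-numbered arrays deviated from their group means with correlations of 0.09, 0.25 and 0.24 over 6 arrays, and PLZF_ON replicate 1 was closer to WT replicate 2 (0.12). All other differently numbered arrays correlated negatively, at -0.235 to -0.03. With a replicate block Slamf7 passed over 6 arrays (1 of 8, limma adjusted p = 0.0386), and 101 rows passed over 4. With array weights 2 of the 8 passed over 6 arrays, Slamf7 (limma adjusted p = 0.0197) and Slamf6 (0.0492), with 2 of the pathway genes, Egr2 (0.0135) and Pag1 (0.0403), and 259 rows. Leaving out 1 array gave 0 to 106 rows and 0 to 1 members over 4 arrays, and 0 to 107 rows and 0 to 1 pathway genes over 6. With all deposited rows tested together 0 rows passed over 4 or 6 arrays, and with median centring 5 passed over 6. The cause of these shifts was not tested. Without 1 array of a pair, the single one left is assumed to vary like the others. Dim rows such as Slamf1, Slamf9 and the SAP-like adaptors are limited by signal over background.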
